A study of Homo sapiens with 8 samples.

Results

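The RNAs described here are the small nucleolar, Cajal body and related small structured RNAs on an expression array of the human colorectal cancer line Caco-2. They were taken as the probes whose gene symbol began with SNORA, SNORD, SCARNA, SNAR, RNU or RN7S and whose detection p was under 0.01 on at least 1 of the 8 arrays. Of 324 probes with such symbols, 176 met this rule, among 47322 probes on the array, and they stood for 172 gene symbols. Among the 176 were 77 box H/ACA snoRNA probes, 70 box C/D snoRNA probes, 16 small Cajal body RNA (scaRNA) probes, 9 spliceosomal snRNA probes, 3 probes for 7SK and 7SL RNA, and 1 for snaR-A. The detection p is the chance that a background bead would be as bright as the probe. The 12 members detected on a single array had a lowest detection p between 0.0013 and 0.00779, and the nearest 3 probes outside the rule lay between 0.0104 and 0.0117.

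Caco-2 cells were grown attached as a monolayer and were infected with lentivirus. The ESRP1-overexpressing cells carried the ESRP1 coding sequence in pLX304 and the Empty cells the vector alone, both under blasticidin selection. The ESRP1-silenced cells carried the hairpin sh4, the only hairpin profiled, in pLKO.1, and the Scr cells a scrambled hairpin, both under puromycin selection. ESRP1 is an epithelial RNA-binding protein that controls alternative splicing, and the question was what its gain and its loss change in these cells. Each group had 2 arrays, with ESRP1-overexpressing and Empty cells on 1 chip and ESRP1-silenced and Scr cells on another. Nothing in the sources used here says whether the 2 arrays of a group came from separate cultures, so p-values measure only the array-to-array spread, and that spread may be technical. With 2 arrays a group, exact permutation gives no p below 0.333 (two-sided), so tests come from limma (two-sided), which fitted all 18231 probes detected on at least 2 arrays, 164 members among them, and adjusted p over all of them (a call is an adjusted p under 0.05).

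Box C/D snoRNAs guide 2′-O-methylation and box H/ACA snoRNAs guide pseudouridylation, mostly of ribosomal RNA in the nucleolus, while scaRNAs guide the same modifications of spliceosomal snRNAs in Cajal bodies. In human cells most are cut out of introns of other genes, their hosts, among them many ribosomal protein genes and noncoding small nucleolar RNA host genes (SNHG). The snRNAs, U3, 7SK and 7SL RNA and snaR are transcribed from their own promoters. The mature forms of these RNAs carry no poly(A) tail, and the labelling kit primes cDNA from poly(A) tails, so these arrays do not show which form of each RNA was measured.

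ESRP1 itself had levels of 9.75 and 9.96 (log2 intensity) in ESRP1-overexpressing cells, against 8.26 and 7.91 in Empty cells (log2 fold change 1.77, limma adjusted p = 0.0038). Its probe was below detection in both ESRP1-silenced arrays, at 6.37 and 6.16, against 8.03 and 8.32 in Scr cells, a level at least 3.09-fold lower in ESRP1-silenced cells (limma adjusted p = 0.047). Of 9 markers of colorectal epithelium, 8 were detected on all arrays, the exception being KRT20. CD68 and LYZ of leukocytes and PDGFRB of fibroblasts were also detected on all arrays, whereas PTPRC and CD3E of leukocytes, COL3A1 and DCN of fibroblasts and VWF, CDH5 and KDR of endothelium were detected on none. Between 15153 and 17535 probes were detected per array, with 132 to 151 of the members among them, and the number of arrays limits the precision of every value.

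In Scr and in Empty cells most members lay higher on the same array of the group. Over all probes quantile normalization keeps the median of this difference small, and other sets of dim probes were not compared. In Scr cells, 134 of the 164 members tested were higher on replicate 1 than on replicate 2 (81.7%), with a median difference of 0.309 (log2), against 49.6% of all probes and a median of -0.002. In Empty cells only 38 of 164 were higher on replicate 1, with a median of -0.212. In ESRP1-silenced cells the median difference was 0.123 and in ESRP1-overexpressing cells 0.016. The part that these differences play in the results was not tested, so values that rest on a single control array are given with and without it.

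**Figure D1:**
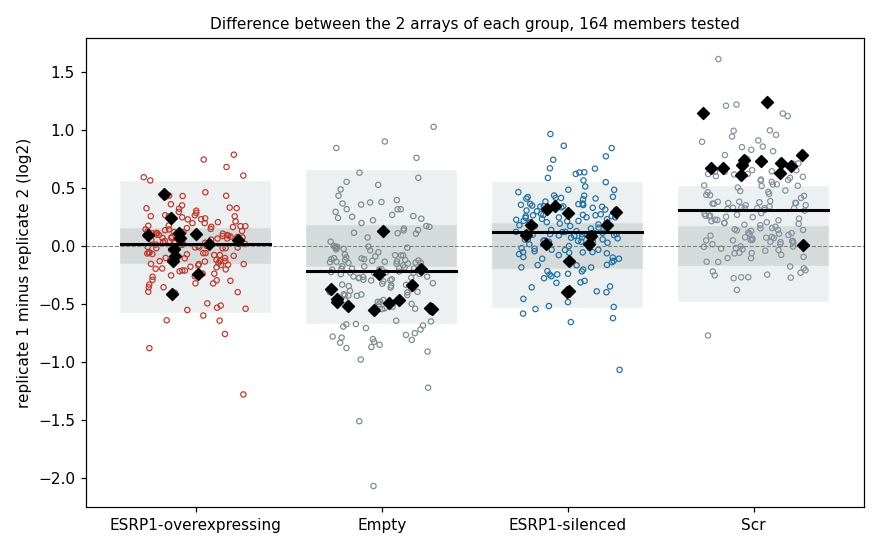
Level on replicate 1 minus level on replicate 2 (log2, vertical axis) for the 164 members tested in each of the 4 groups; circles are members, black diamonds the 13 members with a fitted log2 fold change of -1 or below in ESRP1-silenced against Scr cells, black lines the medians over members, and the dark and pale boxes hold the middle 50% and 90% of all 18231 probes. The members' median lies at 0.309 in Scr cells and at -0.212 in Empty cells, and all 13 diamonds lie above 0 in Scr cells.

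The largest changes among these RNAs lay in the ESRP1-silenced cells, where 3 of the 164 members tested were called, all 3 lower than in Scr cells: SNORA79, SCARNA8 and SNAR-A1. That was 1.83% of the members, against 0.132% of all 18231 probes called in this comparison (0.0987% lower and 0.0329% higher). Counting size instead, 13 members (7.93%) had a fitted log2 fold change of -1 or below with no overlap between the arrays of the groups, against 0.411% of all probes, and no member had one of 1 or above, against 0.34% of all probes. Both groups detected 11 of the 13, and for the other 2, below detection in ESRP1-silenced cells, a fall of that size was not measured. Before adjustment, 32 members had p under 0.05 and a lower level, and 12 had p under 0.05 and a higher level, together 26.8%, against 13.5% of all probes (1242 lower and 1225 higher).

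SNORA79, a box H/ACA snoRNA whose gene of 140 bases lies on chromosome 14 within the span of GTF2A1, had levels of 6.68 and 6.59 in ESRP1-silenced cells, against 9.33 and 8.58 in Scr cells (log2 fold change -2.32 ± 0.24 SE, limma adjusted p = 0.0475). SCARNA8, a scaRNA within HAUS6 on chromosome 9, had 7.43 and 7.34 in ESRP1-silenced cells, against 9.82 and 9.12 in Scr cells (-2.09 ± 0.22, limma adjusted p = 0.0475). Both snoRNA-type probes lay lower on each silenced array than on each Scr array. SNAR-A1, a transcript of RNA polymerase III, had 11.91 and 11.89 in ESRP1-silenced cells, against 14.33 and 13.64 in Scr cells (-2.09 ± 0.24, limma adjusted p = 0.0485). The genome holds many near-identical snaR-A genes, so which copy the probe read is uncertain. These 3 calls lay just inside the threshold: with any 1 of the 8 arrays left out, no probe on the array was called, and the adjusted p of the 3 ranged from 0.0721 to 0.334. The fall itself was -2.69, -2.44 and -2.44 against Scr replicate 1 and -1.95, -1.74 and -1.75 against Scr replicate 2, for SNORA79, SCARNA8 and SNAR-A1 in that order.

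Among scaRNAs, SCARNA18, within TMEM167A, had levels of 7.70 and 8.09 in ESRP1-silenced cells, against 10.14 and 9.35 in Scr cells (log2 fold change -1.85, limma adjusted p = 0.098). SCARNA11, within CHD4, had 7.38 and 7.06 in ESRP1-silenced cells, against 8.90 and 8.27 in Scr cells (-1.36, limma adjusted p = 0.12). SCARNA20, within USP32, was below detection on both silenced arrays and was at least 1.58-fold lower there (limma adjusted p = 0.193), with 7.83 and 6.59 in Scr cells. None of these 3 passed the test. The silenced arrays lay below both Scr arrays for each, which the rule for naming them required.

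Among box H/ACA snoRNAs, SNORA28, within EIF5, had levels of 8.01 and 8.13 in ESRP1-silenced cells, against 9.93 and 9.25 in Scr cells (log2 fold change -1.52, limma adjusted p = 0.118). SNORA62, within RPSA and also known as E2, had 9.28 and 9.10 in ESRP1-silenced cells, against 10.67 and 10.05 in Scr cells (-1.17, limma adjusted p = 0.151). SNORA13, within the noncoding gene EPB41L4A-AS1, had 7.94 and 7.76 in ESRP1-silenced cells, against 9.42 and 8.69 in Scr cells (-1.21, limma adjusted p = 0.155). SNORA2B and SNORA80E differed by -1.04 and -1.25 (limma adjusted p = 0.193 and 0.243), and SNORA51, below detection on both silenced arrays, was at least 1.06-fold lower (limma adjusted p = 0.14). One probe of RNU11, the U11 snRNA of the minor spliceosome, differed by -1.03 (limma adjusted p = 0.194), and its other probe by -0.34. Scr replicate 1 lay above Scr replicate 2 for each of the 13 members, by 0.01 to 1.24, and with Scr replicate 1 left out 8 members instead of 13 had a fitted value of -1 or below without overlap, against 0.581% of all probes; with Scr replicate 2 left out 24 were, against 0.538%.

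**Figure D2:**
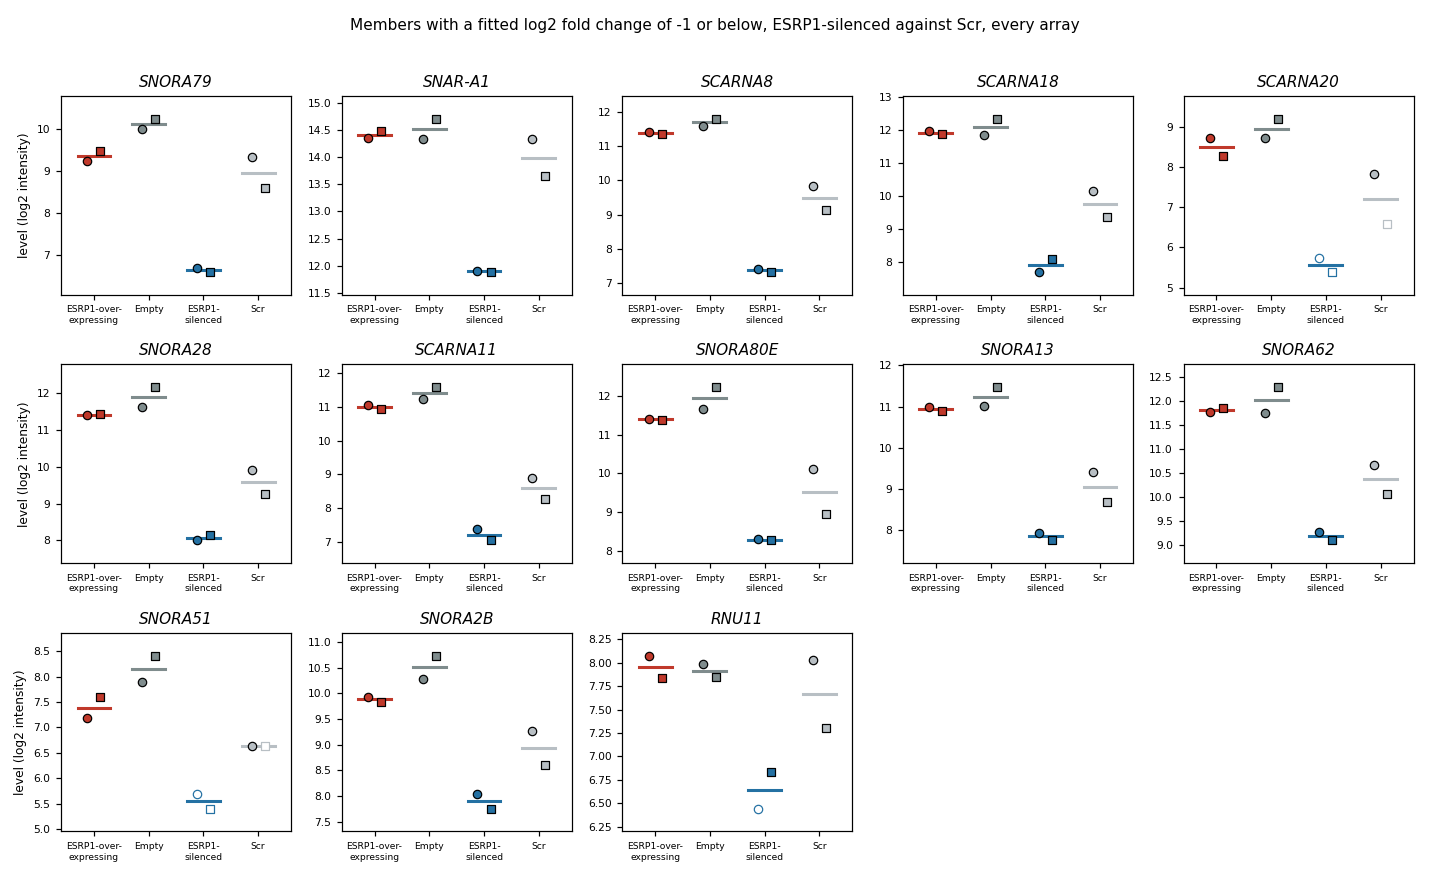
Level (log2 intensity, vertical axis, a separate scale in each panel) on each array for the 13 members with a fitted log2 fold change of -1 or below in ESRP1-silenced against Scr cells; circles are replicate 1, squares replicate 2, open symbols arrays below detection and bars group means. Both silenced arrays lie below both Scr arrays in every panel, as the rule for naming these members required. Scr replicate 1 lies above Scr replicate 2, by 1.24 at most.

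The same 13 members were also at lower levels in Scr than in Empty cells, with 13 differences between -2.81 and -0.25 on the log2 scale and a median of -1.75 (Scr minus Empty). SCARNA18, for example, had 11.95 and 11.88 in ESRP1-overexpressing cells and 11.84 and 12.33 in Empty cells. Over all 164 members the median of Scr minus Empty was -0.64, with 137 lower in Scr cells, against a median of 0.03 over all probes. The controls sat on different chips and differed in vector and selection drug, so these cannot be told apart and no test was made. As the arrays are of bulk RNA, fewer cells expressing an RNA and less of it per cell cannot be told apart either.

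In ESRP1-overexpressing cells 10 of the 164 members were called (6.1%), 6 higher and 4 lower than in Empty cells, against 7.43% of all 18231 probes (4.06% higher and 3.36% lower), so the members' share was near that of the array as a whole. The 6 higher were SNORA61, SNORA73B, SNORD139, SNORD91A, SNORD91B and SNORD96B, and the 4 lower were SNORA5B, SNORA55, SNORA59B and SNORA84. Past a fitted log2 fold change of 1 in size without overlap lay 4 members on the higher side (2.44%, against 2.11% of all probes) and 3 on the lower (1.83%, against 1.82%), but of these only SNORA61 was detected in both groups, and for the other 6 a change of that size was not measured. Unadjusted p was under 0.05 for 21 members that were higher and 28 that were lower, together 29.9%, against 25.9% of all probes.

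SNORA61, a box H/ACA snoRNA in SNHG12 on chromosome 1, was detected on all arrays and had levels of 10.95 and 11.10 in ESRP1-overexpressing cells, against 9.97 and 9.96 in Empty cells (log2 fold change 1.06 ± 0.15 SE, limma adjusted p = 0.0105). One of the probes for SNORA73B, which with SNORA73A forms the U17 snoRNAs needed for cleavage of pre-ribosomal RNA, had 8.77 and 8.92 in ESRP1-overexpressing cells, against 7.96 and 8.23 in Empty cells (0.75 ± 0.17, limma adjusted p = 0.0456). Its other probe differed by 0.60 (limma adjusted p = 0.069), and SNORA73A by 0.30, and the copies are alike enough that reads of either can be shared. SNORA84, in the isoleucyl-tRNA synthetase gene IARS1, had 6.99 and 7.15 in ESRP1-overexpressing cells, against 8.23 and 7.83 in Empty cells (-0.96 ± 0.19, limma adjusted p = 0.0316), with ESRP1-overexpressing replicate 1 below detection. SNORA61 lost its call in 2 of 18 other limma fits, without ESRP1-overexpressing replicate 2 (limma adjusted p = 0.0626) and on the 4 arrays of the chip alone, whereas SNORA84 lost it in 8 of 17 and SNORA73B in 14 of 18, among them each fit with 1 array left out.

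The other 7 calls concerned probes that 1 of the groups did not detect, so that only a bound on the fold was measured. SNORD139, in the ribosomal protein gene RPL3, had 7.53 and 7.51 in ESRP1-overexpressing cells and was below detection in Empty cells at 6.17 and 5.88, at least 1.44-fold higher (limma adjusted p = 0.00789). SNORD96B, SNORD91B and SNORD91A were likewise detected in ESRP1-overexpressing and not in Empty cells, at least 1.26-fold, 1.11-fold and 1.09-fold higher (limma adjusted p = 0.0157, 0.0141 and 0.0496), SNORD91A on 1 of the ESRP1-overexpressing arrays only. SNORD91A and SNORD91B lie in introns of the same gene, TSR1, which encodes a ribosome maturation factor, and are related in sequence. Their bounds were close to 1, so the sizes of these changes were not measured.

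SNORA5B had 5.68 and 5.47 in ESRP1-overexpressing cells, below detection, against 6.99, also below detection, and 7.12 in Empty cells (a bound of 1.00-fold, limma adjusted p = 0.00204). Among the 10 it alone was called in each of the 17 other limma fits that tested it, whereas SNORA55 and SNORD91A were called in none of theirs. SNORA55 and SNORA59B were also below detection in ESRP1-overexpressing cells, at least 1.25-fold and 1.09-fold lower (limma adjusted p = 0.0491 and 0.0315). SNORA48, at least 1.34-fold lower, did not pass the test (limma adjusted p = 0.0806).

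**Figure D3:**
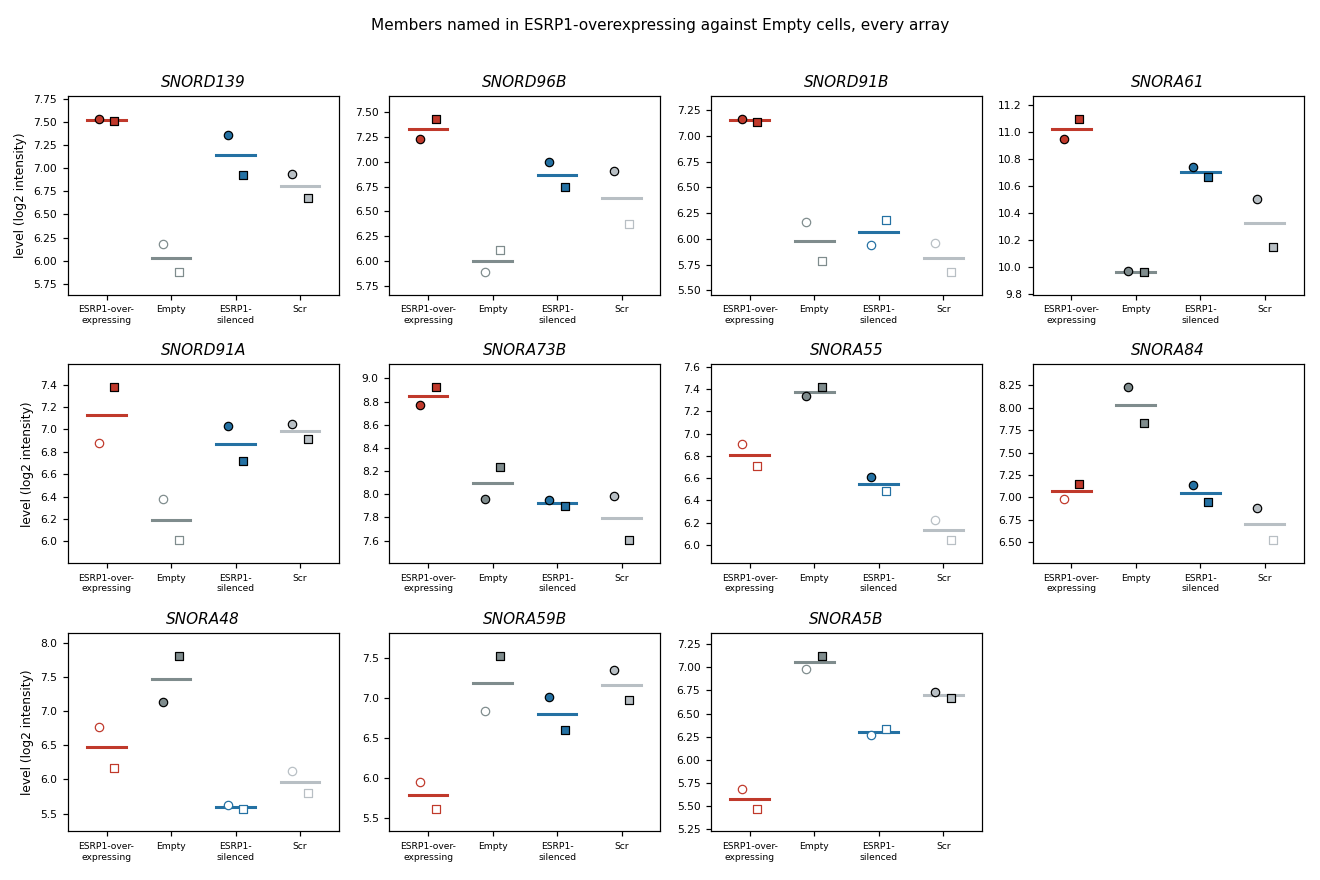
Level (log2 intensity, vertical axis, a separate scale in each panel) on each array for the 10 members called in ESRP1-overexpressing against Empty cells and for SNORA48, which was not called; circles are replicate 1, squares replicate 2, open symbols arrays below detection and bars group means. SNORA61 and SNORA73B have filled symbols on all 4 of these arrays, at 10.95 and 11.10 against 9.97 and 9.96 for SNORA61, whereas SNORD139 is open on both Empty arrays.

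The change with ESRP1 overexpression minus the change with ESRP1 silencing was called for 5 members (3.05%), 2 of them higher and 3 lower, against 3.2% of all probes (1.76% higher and 1.44% lower). The difference was above 0 for SNAR-A1 (1.99 ± 0.34 SE on the log2 scale, limma adjusted p = 0.0314) and SCARNA8 (1.78 ± 0.32, limma adjusted p = 0.037), whose levels hardly differed between ESRP1-overexpressing and Empty cells (log2 fold changes -0.10 and -0.31). It was below 0 for SNORA5B, SCARNA3 and SNORA55, each below detection in at least 1 of the groups. For SNORA79 the difference was 1.56 (limma adjusted p = 0.065), so its changes in the ESRP1-overexpressing and ESRP1-silenced cells were not shown to differ. SNORA79 was not called in ESRP1-overexpressing cells in the main fit. It was called lower there by quantile normalization without background correction, on the authors' normalized values and with a trended and robust variance prior, and in no other limma fit.

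By class, the box C/D and the other members had medians of opposite sign in ESRP1-overexpressing cells. The 63 box C/D snoRNAs tested had a median log2 fold change of 0.24, with 45 higher than in Empty cells, whereas the 72 box H/ACA snoRNAs had -0.21, with 27 higher, and all 16 scaRNAs were lower, between -0.97 and -0.01 (median -0.41). The median over all 164 members was -0.060 and over all probes 0.000426, and that of the members was -0.197 without Empty replicate 1 and 0.061 without Empty replicate 2. With probes that only 1 group detected set at their bound, and the 6 that neither group detected left out, the medians were -0.043 over all members, 0.21 for box C/D, -0.19 for box H/ACA and -0.33 for scaRNAs. Each of these class medians kept its sign with any 1 array left out, from 0.16 to 0.27 for box C/D, -0.43 to -0.06 for box H/ACA and -0.52 to -0.23 for scaRNAs, the values nearest 0 for H/ACA and scaRNAs being those without Empty replicate 2. With arrays centred on the median instead of quantile normalized, which moved the median of all probes to 0.116, they were 0.34, -0.08 and -0.27, with 3 scaRNAs above 0. In the fit used for the calls above, none of the 16 scaRNAs was called. Of the 63 box C/D snoRNAs 4 were called, all higher. Of the 72 box H/ACA snoRNAs 2 were called higher and 4 lower, and over all probes 7.43% were called.

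In ESRP1-silenced cells, 14 of the 16 scaRNAs were lower than in Scr cells (median -0.71, or -0.49 with bounds), 51 of 72 box H/ACA snoRNAs were lower (median -0.17) and 23 of 63 box C/D snoRNAs were lower (median 0.078). The median scaRNA level on each array was 7.41 and 7.17 in ESRP1-silenced cells, against 8.48 and 7.91 in Scr cells. For box H/ACA snoRNAs it was 7.67 and 7.62 in ESRP1-silenced cells, against 7.92 and 7.65 in Scr cells, where the second Scr array lay level with the silenced ones. The median over all 164 members was -0.103, or -0.082 with bounds and without the 9 members that neither group detected, against -0.000145 over all probes. Without Scr replicate 1 it was -0.005, and the scaRNA median was -0.32, the H/ACA median -0.14 and the C/D median 0.18; without Scr replicate 2 they were -0.185, -1.05, -0.30 and -0.01. Without ESRP1-silenced replicate 1 the members' median was -0.160 and the medians of the 3 classes -0.50, -0.30 and 0.003, and without ESRP1-silenced replicate 2 they were -0.013, -0.65, -0.12 and 0.14. SCARNA3 went the other way, with 6.86 and 6.72 in ESRP1-silenced cells, against 5.88 and 5.94 in Scr cells, below detection there (at least 1.11-fold higher, limma adjusted p = 0.128).

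**Figure D4:**
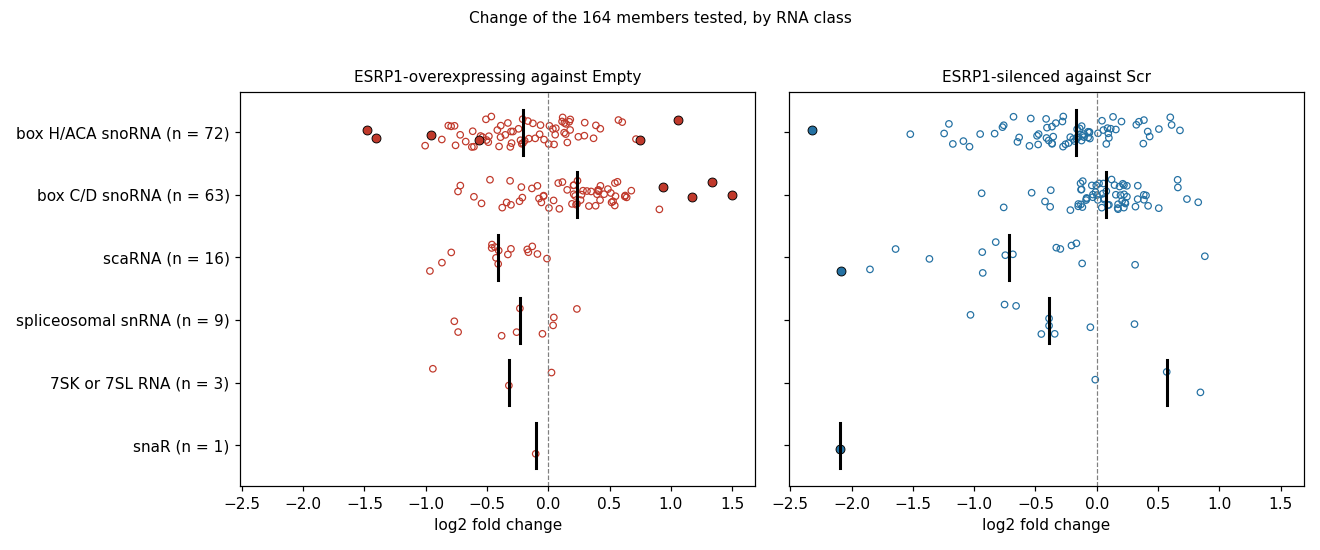
Log2 fold change (horizontal axis) of the 164 members tested, by RNA class (rows), in ESRP1-overexpressing against Empty cells (left) and ESRP1-silenced against Scr cells (right); open circles are members not called, filled circles members called and black bars class medians. All 16 scaRNAs lie below 0 on the left, and 14 of 16 on the right with a median of -0.71.

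Among the RNAs with genes of their own, the major U3 snoRNA, which takes part in the first cleavages of pre-ribosomal RNA, was read by probes for SNORD3A, SNORD3C and SNORD3D, near-identical copies. Their log2 fold changes were -0.54, -0.74 and -0.48 in ESRP1-overexpressing cells (limma adjusted p = 0.0645 to 0.265) and 0.10, 0.33 and 0.32 in ESRP1-silenced cells (0.569 to 0.801). RN7SK, the RNA that holds the elongation factor P-TEFb inactive, had 9.99 and 9.98 in ESRP1-overexpressing cells, against 10.25 and 10.37 in Empty cells (-0.32, limma adjusted p = 0.197), and 10.29 and 10.10 in ESRP1-silenced cells, against 9.75 and 9.50 in Scr cells (0.57, limma adjusted p = 0.185). Its other probe gave -0.94 and 0.85, also short of the threshold. Neither U3 nor 7SK RNA overlapped between ESRP1-overexpressing and Empty arrays. Both 7SK probes also lay higher, without overlap, on ESRP1-silenced than on Scr arrays. Many other members were separated too. In ESRP1-overexpressing cells, 33 of the 72 box H/ACA snoRNAs were lower and 10 higher without overlap. Of the 63 box C/D snoRNAs, 10 were lower and 33 higher. In ESRP1-silenced cells, 30 box H/ACA snoRNAs were lower and 10 higher, and 7 box C/D snoRNAs were lower and 12 higher. With 2 arrays a group, exact permutation gives such a separation a p of 0.333 (two-sided), and none of these probes was called.

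The 3 members with the highest mean level were RN7SL1, SNAR-A1 and RNU6-1. RN7SL1, the RNA of the signal recognition particle, had 15.40 and 15.40 in ESRP1-overexpressing cells, against 15.43 and 15.32 in Empty cells (0.03, limma adjusted p = 0.914), and 15.50 and 15.53 in ESRP1-silenced cells, against 15.60 and 15.46 in Scr cells (-0.01, limma adjusted p = 0.976). RNU6-1, the U6 snRNA of the spliceosome, had 13.86 and 13.76 in ESRP1-overexpressing cells, against 13.52 and 13.63 in Empty cells (0.23, limma adjusted p = 0.38), and 12.35 and 12.41 in ESRP1-silenced cells, against 12.95 and 12.58 in Scr cells (-0.39, limma adjusted p = 0.336). SNAR-A1, with its fall in ESRP1-silenced cells given above, had 14.35 and 14.48 in ESRP1-overexpressing cells, against 14.33 and 14.70 in Empty cells. Both RN7SL1 and RNU6-1 belong to families of near-identical copies.

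The values of the host genes spread less than those of the RNAs inside them. A host was taken as the gene whose span holds the small RNA gene, without comparing strand. Where several spans held it, the smallest with a tested probe was taken. The gene that a small RNA is cut from may therefore be another than the host given here. Of the 176 members 158 had such a host, 109 hosts in all, of which 88 were tested. Over the 121 members whose host was tested, the median size of the log2 fold change was 0.34 in ESRP1-overexpressing cells, against 0.159 for their 82 hosts, and in ESRP1-silenced cells 0.23, against 0.114. The members were dim probes: their median level was 7.66 to 8.72 on the arrays, against 9.14 over all probes tested. The lowest detected value of an array was 6.53 to 7.08. The part that level plays in this difference of spread was not tested. The host values are of the probe with the highest mean level of each host. By that probe, 1 of the 88 hosts was called in ESRP1-overexpressing cells, against 7.43% of all probes, and none in ESRP1-silenced cells, against 0.132%. Of those 82 hosts, 9 were higher and 8 lower with an unadjusted limma p under 0.05 in ESRP1-overexpressing cells, against 25.9% of all probes. In ESRP1-silenced cells 4 were higher and 2 lower, against 13.5% of all probes. There the limma log2 fold changes ran from -0.44 to 0.52. Over all 140 probes of the hosts they ran from -0.48 to 0.82, also with no call, and in ESRP1-overexpressing cells 1 further probe was called, of ASTN2, host of SNORA70C (-0.83, limma adjusted p = 0.0101), whose other probe gave -0.52 (0.0896).

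Of the members named for a fall in ESRP1-silenced cells, those hosts that were tested showed values near 0. The median size over the 82 hosts above was 0.114 in these cells. The hosts of the called members SNORA79 and SCARNA8 were not among those tested. TMEM167A, host of SCARNA18, differed by -0.002 (limma adjusted p = 0.998), CHD4, host of SCARNA11, by 0.04 (0.923), EIF5, host of SNORA28, by 0.12 (0.708), EPB41L4A-AS1, host of SNORA13, by 0.06 (0.866), and KHDC4, host of SNORA80E, by -0.09 (0.799). GTF2A1, HAUS6, USP32 and RPSA, hosts of SNORA79, SCARNA8, SCARNA20 and SNORA62, were not tested. The difference between a member and its host was itself not tested.

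Some hosts of a member named above for its size hold further members. Picking hosts by a large value favours smaller values in the neighbours, so the contrast in size is not a result. In NOP56, which encodes a core protein of box C/D particles, SNORA51 was at least 1.06-fold lower in ESRP1-silenced than in Scr cells, while SNORD110, SNORD56 and SNORD57 differed by -0.08, 0.38 and 0.51 and NOP56 by -0.04. In RPSA, SNORA62 differed by -1.17 and SNORA6 by -0.41. In KANSL2, SNORA2B differed by -1.04 and SNORA2C by -0.27. For SNORA51 only a bound was measured, so a difference in size from its neighbours was not shown. None of these neighbours passed the test, and the differences between them were not tested.

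In ESRP1-overexpressing cells, the host called by its brightest probe was PABPC4, a cytoplasmic poly(A)-binding protein, which was higher (log2 fold change 0.81, limma adjusted p = 0.0125). SNORA55 inside it was called lower, but it was below detection in these cells and, as given above, kept its call in no other limma fit that tested it. SNHG12, host of SNORA61, differed by 0.50 with a standard error of 0.61 (limma adjusted p = 0.654), and the other SNHG12 members SNORA16A and SNORD99 were at least 1.35-fold and 1.12-fold higher without passing the test (0.104 and 0.15). TSR1, host of SNORD91A and SNORD91B, differed by 0.64 (limma adjusted p = 0.0617). RCC1, taken as host of SNORA73B by its span alone, differed by 0.51 (0.0795). RPL3, host of SNORD139, differed by 0.001, and AMMECR1, host of SNORD96B, by 0.002. IARS1, host of SNORA84, differed by -0.24 and TBRG4, host of SNORA5B, by 0.10.

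**Figure D5:**
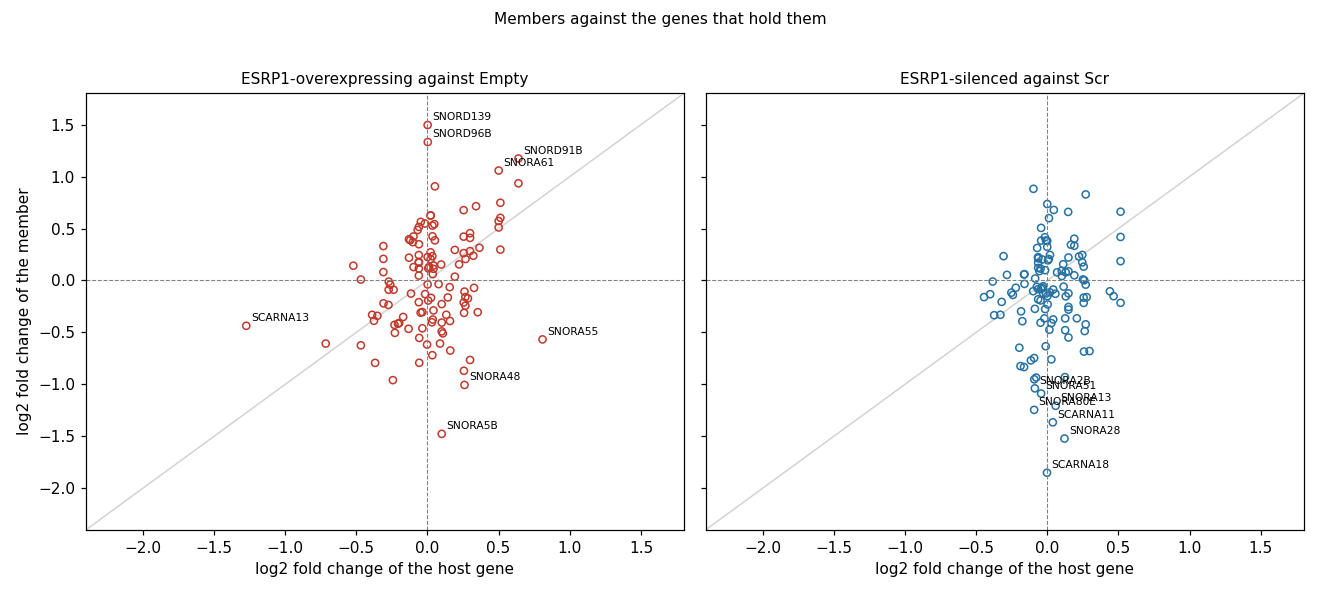
Log2 fold change of each member (vertical axis) against that of its host gene (horizontal axis), for the 121 members with a host tested, in ESRP1-overexpressing against Empty cells (left) and ESRP1-silenced against Scr cells (right); the grey diagonal marks equal change and members past 1 in size are named, as are those whose host was past 0.8. Each host is shown by its probe of highest mean level, and on the right the hosts run from -0.44 to 0.52 while SCARNA18 lies at -1.85.

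Many snoRNA hosts belong to the genes whose mRNAs begin with a C followed by a run of pyrimidines, the terminal oligopyrimidine start that couples their translation to nutrient signalling. The starts of 6 hosts of members described above are printed to show both kinds, from RefSeq (GRCh38.p14), with 15 bases before the annotated start in lower case and the first 15 transcribed bases in capitals. SNHG12, host of SNORA61, starts within chr1:28581859-28581888 on the minus strand and RPSA, host of SNORA62, within chr3:39406705-39406734 on the plus strand. RPL3, host of SNORD139, starts within chr22:39319609-39319638, HAUS6, host of SCARNA8, within chr9:19102890-19102919, TMEM167A, host of SCARNA18, within chr5:83077380-83077409 and CHD4, host of SCARNA11, within chr12:6606437-6606466, all on the minus strand.
SNHG12: tcgcggcttcagcgcCCTTTCTCCCCGCCG
RPSA: tttcctgccgcctgtCTTTTCCGTGCTACC
RPL3: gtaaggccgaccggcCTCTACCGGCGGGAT
HAUS6: cgcacactgctcttcCTTAAGGGCGGGAGT
TMEM167A: gagggcgagaagggcAGACGGGACATGCAG
CHD4: ccctcccccgcacagTGACTCGGGCCAGTG

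A start with C and at least 4 further pyrimidines (C or T), searched only at the annotated start and on the gene's own strand, was found in SNHG12 and RPSA and not in the other 4. It was found in 14 of 17 ribosomal protein hosts (82.4%), 11 of 56 other protein-coding hosts (19.6%) and 3 of 14 noncoding hosts (21.4%) with a promoter in the RefSeq table, against 4.07% of its 35116 promoters. In ESRP1-overexpressing cells the 50 members tested whose host had this start had a median log2 fold change of 0.19, and the 74 whose host lacked it -0.10. In ESRP1-silenced cells these medians were -0.06 and -0.12, and the 2 host-borne members called there, SNORA79 and SCARNA8, were both in hosts without it. These are descriptions, as neighbouring RNAs share hosts and the start goes along with class: 14 of the 16 scaRNAs among these members were in hosts that lacked it.

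Proteins that build, process and bind these RNAs, together with noncoding host genes and other small RNAs, were read from 13 lists holding 150 measured genes, each by its probe of highest mean level. Of these 2 were called higher and 1 lower in ESRP1-overexpressing cells (2%, against 7.43% of all probes) and none in ESRP1-silenced cells (against 0.132%), and none of the 47 further probes of these genes was called. Before adjustment, p was under 0.05 for 17 that were higher and 17 lower in ESRP1-overexpressing cells, together 22.7%, against 25.9% of all probes, and for 4 that were higher and 11 lower in ESRP1-silenced cells, together 10%, against 13.5%. Of the 7 proteins of the 7SK particle, HEXIM2, which with 7SK RNA inhibits P-TEFb, had 7.97 and 7.91 in ESRP1-overexpressing cells, against 8.64 and 8.73 in Empty cells (log2 fold change -0.74, limma adjusted p = 0.0292). CCNT2, a cyclin subunit of P-TEFb, had 9.58 and 9.86 in ESRP1-overexpressing cells, against 9.09 and 9.08 in Empty cells (0.64, limma adjusted p = 0.0423), and its other probe 0.08. UTP11, of the 23 measured proteins of the U3 particle and small subunit processome, had 10.94 and 11.00 in ESRP1-overexpressing cells, against 10.36 and 10.33 in Empty cells (0.63, limma adjusted p = 0.0231).

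None of the 4 core proteins of box C/D particles or the 4 of box H/ACA particles was called in either comparison. By the brightest probe of each gene, the largest values were 0.40 for GAR1 in ESRP1-overexpressing cells (limma adjusted p = 0.0749) and -0.40 for NOP58 in ESRP1-silenced cells (0.443). Another GAR1 probe gave 0.59 in ESRP1-overexpressing cells (0.066) and 0.42 in ESRP1-silenced cells (0.312). Assembly factors (10 genes), Cajal body and SMN complex proteins (16), factors of snRNA transcription and 3′ end processing (17), signal recognition particle proteins (6), RNA polymerase III and its factors (21) and tailing, trimming and exosome factors (16) held no called gene. By the same probe rule, their largest values were, in ESRP1-overexpressing cells, 0.43 for ZNHIT6, 0.71 for SART3, -0.60 for INTS11, 0.44 for SRP72, 0.43 for SSB and -0.39 for EXOSC3, named after its values were seen because DIS3, first by size, was below detection in both groups. In ESRP1-silenced cells they were, by that rule, -0.32 for NAF1, -0.38 for SMN2, -0.61 for INTS7, 0.32 for SRP14, 0.42 for MAF1 and -0.69 for TENT4B, a poly(A) polymerase that adenylates snoRNA ends (limma adjusted p = 0.128). Further probes gave larger values there for SNAPC1 (0.97), SRP9 (0.55) and GTF3C4 (-0.64), and in ESRP1-overexpressing cells for GTF3C4 (0.58) and EXOSC9 (0.49), none of them called.

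Other small structured RNAs (9 measured) and noncoding snoRNA host genes (16) were also without calls. RNY1, a Y RNA transcribed by RNA polymerase III, was at least 1.30-fold lower in ESRP1-silenced cells (limma adjusted p = 0.186), and RMRP, the RNA of RNase MRP, differed by -0.57 in ESRP1-overexpressing cells (0.187). SNHG10, host of SCARNA13, differed by -1.27 in ESRP1-overexpressing cells (limma adjusted p = 0.0854), where SCARNA13 differed by -0.44.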

How the data were processed

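RNA of 8 Caco-2 samples was hybridised to Illumina HT-12 BeadChips. The deposited non-normalized table gave a probe intensity and a detection p-value per array, and the authors also deposited normalized intensity values, used as an alternative; the sources used here do not name their software. In 88 cells the detection p was written as a number far above 1 and was read as 1. Background was corrected and arrays quantile normalized with neqc (limma 3.58.1, R 4.3.3, offset 16), and all 4 groups were fitted together (4 residual and 2.8 prior degrees of freedom). A probe below detection on both arrays of a group was given as a bound against the array's lowest detected value. Of 47322 probes, 30113 had 1 symbol, 8 several and 17201 none in the platform annotation. All 176 members matched RefSeq by gene ID.

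Named members were those called, those past 1 in log2 size without overlap and the 3 of highest mean level, with their hosts; from each list came up to 3 called genes or the 1 that changed most. Members and lists were chosen with earlier results of these data known. Alternatives changed the background correction, normalization, detection filter, arrays fitted, variance prior and test, and left out each array; the replicate number was also used as a block. Hosts were taken by gene span in RefSeq, without strand, as the smallest span with a tested probe where several held the member. Genes with several probes were read by the probe of highest mean level. The values of 1 list are not reported here. The steps were tested on simulated data.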

Additional observations from a re-analysis of the deposited data

Results flagged for a closer look

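For 5 members the change with ESRP1 overexpression and the change with ESRP1 silencing differed by the test of the difference itself. That was 3.05% of the 164 members tested, near the 3.2% of all probes called by the same test. On the log2 scale (overexpression change minus silencing change) it was -1.07 for SNORA5B (limma adjusted p = 0.0296), 1.99 for SNAR-A1 (0.0314), 1.78 for SCARNA8 (0.037), -1.29 for SCARNA3 (0.0431) and -0.98 for SNORA55 (0.0441). For SNAR-A1 the log2 fold change was -0.10 in ESRP1-overexpressing against Empty cells and -2.09 in ESRP1-silenced against Scr cells, and for SCARNA8 it was -0.31 and -2.09, with every array above detection. The other 3 rested in part on arrays below detection, so the size of their difference was not measured. Most of these calls did not hold in other limma fits: SNORA5B and SNORA55 lost theirs in 15 of 16, SCARNA3 in 14 of 16, SCARNA8 in 10 of 17 and SNAR-A1 in 9 of 17.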

How the results depend on the processing

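No named member that was called changed direction under an alternative. The members' median with ESRP1 overexpression, -0.060, ran from -0.197 (without Empty replicate 1) to 0.061 (without Empty replicate 2) and was 0.039 with arrays centred and 0.009 over probes detected on all 8 arrays. Members called with ESRP1 overexpression numbered 10, and 24 both by quantile normalization without background correction and on the authors' normalized values (8 of the 10 among them), 19 with a trended and robust variance prior, 5 with arrays centred on the median, 5 with no detection filter, 1 in a fit to the 4 arrays alone, 3 by the methods' t-test and fold threshold and 0 by that t-test after Benjamini-Hochberg adjustment (20 unadjusted). With ESRP1 silencing the 3 calls became 8, 8, 9 (probes detected on all 8 arrays) and 18 (trended prior), 1 by the methods' t-test (SCARNA3, higher), and 0 by limma with probes detected on 1 array (41 unadjusted), with no filter (42), on the 4 arrays alone (43) and, for the t-test, after adjustment (12). The calls on the difference, 5, became 9, 8, 3 (centred), 2 (detected on 1 array), 0 (no filter, 41 unadjusted), 9 (all 8 arrays) and 15 (trended). Hosts called with ESRP1 overexpression, 1, became 5, 5, 2 (centred), 5 (all 8 arrays), 0 (4 arrays alone) and 12 (trended), and with silencing 2 (trended). Members with a fitted value 1 or more higher with ESRP1 overexpression, 4, became 0, 0 and 1 (all 8 arrays), those lower, 3, became 0, 0 and 0; with silencing the 13 lower became 6 and 5, and 1 was higher with centring. Where values stand without a setting, they are for quantile normalization and the authors' values in that order. The cause of these changes was not tested. By the methods' t-test and fold threshold, 452 of all 18231 probes were called with ESRP1 overexpression and 125 with silencing. For the other settings, here and in the next paragraph, the share of all probes is not given beside the counts. Their rises and falls are therefore not results about the members.

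Leaving out 1 array gave 2 (without ESRP1-overexpressing replicate 2) to 8 members called with ESRP1 overexpression, 0 to 0 with silencing and 0 to 3 for the difference, 0 to 1 hosts, 3 to 13 members 1 or more lower with ESRP1 overexpression (13 without Empty replicate 1), and with silencing 0 to 4 higher (4 without Scr replicate 1) and 8 to 24 lower. Deviations of arrays with equal replicate number correlated at -0.012 to 0.058 over all probes and at -0.199 to 0.163 over the members. Whether the replicate numbers pair the arrays cannot be told from these values. With a replicate block 7 members were called with ESRP1 overexpression (6 of the 10), 0 by limma with silencing (42 unadjusted) and 0 for the difference (41). With 2 arrays a group, and dim probes given only as bounds, small changes of most members could not be measured.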
